A study of Rattus norvegicus with 12 samples.

Results

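Promoter regions of the rat kidney were selected in which the arrays of offspring from control-fed dams lay apart from every array of offspring from low-protein dams, whatever diet the offspring ate afterwards. Probes on the autosomes were joined into a region when their starts were at most 1000 bp apart, and regions with at least 3 probes were kept. The value of a region on an array was the mean of its probes in the authors' table of log2 values. A region was selected when the 3 mCN-CN arrays all lay above, or all lay below, the 9 mLP arrays (3 each of mLP-CN, mLP-LP, and mLP-HP). Of 15396 regions, 551 met the rule, which is 3.58% of all regions. The mCN-CN arrays were higher in 372 of them (2.42%) and lower in 179 (1.16%). Some regions meet such a rule by chance, and the rule does not tell these from the others. Because the rule used the contrast between mCN-CN and mLP, these counts and all differences in that contrast are a description, and no test is given for them.

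In mammals, methyl groups are added to cytosines that are followed by guanine. A promoter is the stretch of DNA around the start of a gene, and dense methylation there usually goes with a silent gene. Methylation patterns are copied when cells divide, so that a change made before birth can in principle be carried into later life. In methylated DNA immunoprecipitation (MeDIP), fragments that carry 5-methylcytosine are captured with an antibody. On the array, precipitated DNA was labeled with Cy5 and input DNA with Cy3, and a higher log2(Cy5/Cy3) means that more methylated DNA was recovered around a probe.

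The animals were male rats of the SHRSP strain (stroke-prone spontaneously hypertensive rats), which is inbred and develops high blood pressure, and kidney DNA was taken at 6 weeks of age. Dams ate a control diet with 20% casein (mCN) or a low-protein diet with 9% casein (mLP) during pregnancy, and all dams and pups then received the control diet until weaning. After weaning, the offspring ate 20% casein (mCN-CN and mLP-CN), 9% in mLP-LP, and 40% in mLP-HP, with 3 arrays in each group. All 4 groups were of the hypertensive strain, and no array of mCN offspring on the low-protein or high-protein diet was analysed here. The sources used here do not say which dam each array's offspring came from, so that p-values measure the spread between these arrays, which may be in part technical or shared by littermates.

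The arrays were scanned in 5 scans, and the groups were not spread evenly over them. Replicates 1 and 2 of mCN-CN formed scan 1, and mCN-CN replicate 3 shared scan 2 with the 3 mLP-CN arrays. The mLP-HP and mLP-LP arrays were in scans 3, 4, and 5, with only scan 4 holding both. In the authors' table, Pearson's r across regions, which are not independent of each other, was 0.986 between mCN-CN replicates 1 and 2. It was 0.938 and 0.940 between each of these and replicate 3. Between replicate 3 and the mLP-CN arrays of its scan, r was 0.949, 0.951, and 0.938. For mLP-LP replicate 10, r was 0.985 and 0.983 with the mLP-HP arrays of its scan. With mLP-LP replicates 11 and 12, from another scan, it was 0.914 and 0.929. For mLP-HP replicate 7, alone in scan 3, r was 0.976 and 0.977 with the other mLP-HP arrays and 0.972 with mLP-LP replicate 10. Median Cy5 intensities were between 129 and 151 on the mCN-CN arrays, between 94 and 103 on mLP-CN, and between 119.5 and 153 on the mLP-LP and mLP-HP arrays. The mLP-LP and mLP-HP arrays shared no scan with mCN-CN or with mLP-CN, and were scanned on other days than both. Scan and group therefore cannot be told apart in those contrasts. For mLP-CN against mCN-CN, scan 2 gives a value within 1 scan, which is given with the named regions.

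In the regions where mCN-CN was higher, all 3 mLP groups had lower values in the table. There, the mCN-CN mean minus the mean of the 3 mLP group means had a median of 0.19 in log2 units. The middle 50% of these regions lay between 0.15 and 0.25, and the whole range was 0.043 to 0.56. In the regions where mCN-CN was lower, all mLP groups had higher values in the table. There, the median was −0.20, with the middle 50% between −0.25 and −0.17 and a range of −0.44 to −0.072. Differences were small on the whole: 266 of the 551 regions exceeded 0.2 in size, and 68 exceeded 0.3. Over all 15396 regions the median difference was 0.015 and the median size was 0.068, against 0.20 in the selected regions.

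Regions are named by their position on build rn4, counted from 1. No gene names are given, because no file links the probes to genes. The 5 regions with the widest gap between the nearest mCN-CN array and the nearest mLP array are described first for the direction in which mCN-CN was higher. Their arrays are shown in the plot of the 10 widest gaps, where H1 to H5 and L1 to L5 follow the order of the text.

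**Figure D1:**
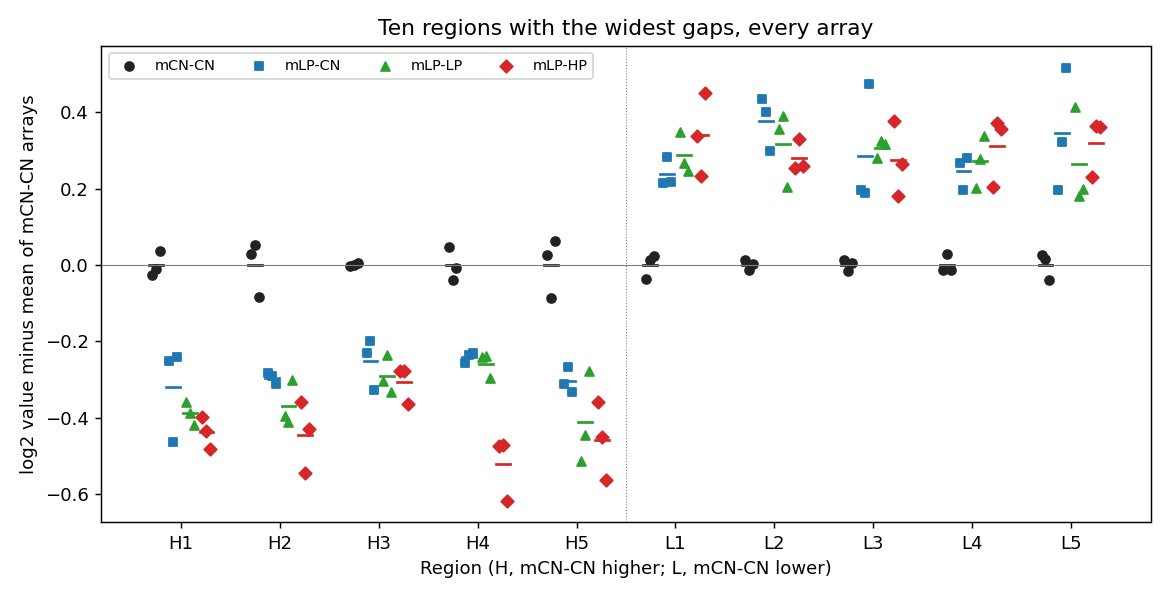
Log2 value of each array in the authors' table, minus the mean of the mCN-CN arrays of that region, for the 5 regions with the widest gap in each direction (H, mCN-CN higher; L, mCN-CN lower). Points are arrays, 3 in each group, and short lines are group means. In H4 (chr8:40592144-40593845) the 3 mLP-HP arrays also lie below the 6 other mLP arrays.

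H1, chr7:4113378-4114963, is covered by 8 probes over 1586 bp. It read −0.73, −0.71, and −0.66 on the mCN-CN arrays. The mLP-CN arrays read −0.95, −1.17, and −0.94, the mLP-LP arrays −1.06, −1.09, and −1.12, and the mLP-HP arrays −1.10, −1.14, and −1.18. The gap between the nearest arrays was 0.21, the widest among the selected regions, and the mCN-CN mean exceeded the mLP mean by 0.38. All 8 probes were higher in mCN-CN, by 0.085 to 0.67. Within scan 2, mCN-CN replicate 3 exceeded the mLP-CN mean by 0.36.

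H3, chr7:3732821-3734335, lies less than 1 Mb from H1 and has 10 probes. Its mCN-CN arrays were close together at −1.85, −1.85, and −1.84. The mLP arrays lay between −2.21 and −2.05, with group means of −2.10 in mLP-CN, −2.14 in mLP-LP, and −2.15 in mLP-HP. The group means differed from mCN-CN by 0.25, 0.29, and 0.31 in the table. In the processed scanner ratio, the log2(Cy5/Cy3) of Agilent's processed signals, the mCN-CN arrays (−2.43, −2.38, and −2.20) overlapped with mLP-CN (−2.41, −2.38, and −2.42), and mLP-HP lay below mLP-CN by −0.62 (SE 0.13, limma adjusted p = 0.00236). All 10 probes were again higher in mCN-CN.

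H2, chr15:4980989-4982562, stood at the bottom of the scale, where little methylated DNA was recovered. The 7 probes averaged −3.68, −3.65, and −3.79 on the mCN-CN arrays. They averaged −3.99, −4.00, and −4.02 in mLP-CN, −4.10, −4.12, and −4.01 in mLP-LP, and −4.07, −4.25, and −4.14 in mLP-HP. The mLP groups descended from mLP-CN (mean −4.00) over mLP-LP (−4.08) to mLP-HP (−4.15). The mLP-LP arrays overlapped with both others, and the mLP-HP arrays all lay below the mLP-CN arrays. H5, chr15:26766470-26767985, had its mCN-CN arrays at −0.21, −0.32, and −0.17 and its mLP arrays between −0.79 and −0.50. In both regions every probe was higher in mCN-CN. Within scan 2, mCN-CN replicate 3 exceeded the mLP-CN mean by 0.21 in H2, 0.26 in H3, and 0.37 in H5. The mean of all mCN-CN arrays exceeded the mLP-CN mean by 0.30, 0.25, and 0.30 there. It exceeded the mean of the 3 mLP group means by 0.37, 0.28, and 0.39.

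H4, chr8:40592144-40593845, is covered by 10 probes over 1702 bp. The mCN-CN arrays read −0.49, −0.57, and −0.54. The mLP-CN arrays read −0.79, −0.77, and −0.76, the mLP-LP arrays −0.77, −0.77, and −0.83, and the mLP-HP arrays −1.006, −1.004, and −1.15. The mLP-CN and mLP-LP arrays overlapped, whereas the 3 mLP-HP arrays lay below all other arrays. The difference from mCN-CN was 0.24 in mLP-CN, 0.26 in mLP-LP, and 0.52 in mLP-HP. Within scan 2, mCN-CN replicate 3 exceeded the mLP-CN mean by 0.23, beside the 0.24 for all mCN-CN arrays against mLP-CN. Over all mLP groups together the difference was 0.34.

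In the other direction, L1, chr2:154836602-154838301, had 11 probes, all lower in mCN-CN. The mCN-CN arrays read −0.32, −0.27, and −0.26, against −0.069, −0.0015, and −0.067 in mLP-CN, 0.065, −0.016, and −0.036 in mLP-LP, and 0.055, −0.051, and 0.17 in mLP-HP. The nearest arrays were 0.19 apart, and the 3 mLP groups overlapped.

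L2, chr4:173817448-173819007, read −0.35, −0.37, and −0.36 on the mCN-CN arrays. The mLP-CN arrays read 0.076, 0.040, and −0.060, the mLP-LP arrays −0.0019, 0.031, and −0.16, and the mLP-HP arrays −0.11, −0.030, and −0.10. Here mLP-CN lay farthest from mCN-CN, by −0.38, compared with −0.32 (mLP-LP) and −0.28 (mLP-HP). Of its 8 probes, 7 shared this direction and 1 was higher in mCN-CN, by 0.28.

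In L3, chr6:1795805-1797464, the mCN-CN arrays read −1.44, −1.46, and −1.44, and the mLP arrays lay between −1.27 and −0.97. Its signal was weak: of 8 probes, the number well above background in Cy5 was 1 in mCN-CN, 2 in mLP-CN, and 3 in mLP-LP and mLP-HP. L4, chr1:209887971-209889683, had its mCN-CN arrays at −0.64, −0.60, and −0.64 and its mLP arrays between −0.43 and −0.26. L5, chr3:71681025-71682684, had its mCN-CN arrays at −0.84, −0.85, and −0.90 and its mLP arrays between −0.68 and −0.34. The signal of L5 was also weak. Of its 8 probes, 2 were well above background in Cy5 in mCN-CN and mLP-CN, 4 in mLP-LP, and 3 in mLP-HP. In the loess ratio described below, the difference of L5 was no longer below 0. In L4, 6 of 8 probes were lower in mCN-CN, and in L5, 7 of 8. Within scan 2, mCN-CN replicate 3 minus the mLP-CN mean was −0.21, −0.38, −0.28, −0.26, and −0.38 in L1 to L5. For all mCN-CN arrays against mLP-CN, the differences were −0.24, −0.38, −0.29, −0.25, and −0.34. Over all mLP groups they were −0.29, −0.32, −0.29, −0.28, and −0.31.

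The other selected regions had narrower gaps. The median gap was 0.031, the middle 50% lay between 0.013 and 0.059, 56 regions had a gap above 0.1, and 111 had one below 0.01. At the threshold, chr8:88522082-88523556 was selected with a gap of 0.00020, its lowest mCN-CN array and its highest mLP array both reading −0.17, and chr12:43115379-43118182 was selected in the other direction with a gap of 0.0014. Just outside, chr9:53336948-53338655 overlapped with a gap of −0.00018, and chr1:44373454-44375580 with a gap of −9.3e-05. These pairs differed by far less than the median SD between arrays of a group, which was 0.070 in the selected regions and 0.095 in all regions. The widest differences between means did not always have the widest gaps. The largest, 0.56 in chr10:44909984-44911674, had a gap of 0.019.

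In the authors' table, the median size of the difference was alike against each offspring diet. In the regions where mCN-CN was higher, the median difference was 0.19 against mLP-CN, 0.19 against mLP-LP, and 0.20 against mLP-HP. Where mCN-CN was lower, it was −0.20 against each of the 3 groups. In the processed scanner ratio the medians differed between the diets. Where mCN-CN was higher, they were 0.12 against mLP-CN, 0.16 against mLP-LP, and 0.29 against mLP-HP, and where it was lower, −0.059, −0.16, and −0.058. Over all regions they were 0.045, 0.0021, and 0.053. The mLP group farthest from mCN-CN was mLP-HP in 217 regions, mLP-CN in 182, and mLP-LP in 152. The nearest single mLP array came from mLP-CN in 227 regions, mLP-LP in 176, and mLP-HP in 148. As the plot of all selected regions shows, the mLP group means moved around each other within a band on one side of mCN-CN. The mLP groups are close together in these regions partly by choice, since the rule needs the 9 arrays to keep to one side: the median range over the 9 mLP arrays was 0.24, against 0.34 over all regions.

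**Figure D2:**
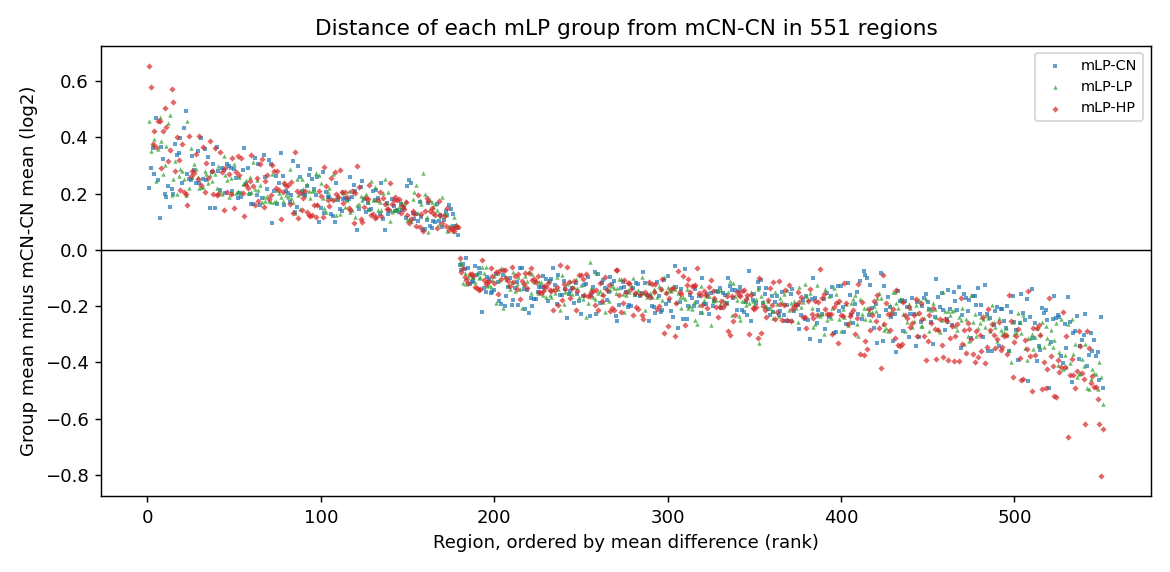
Mean of each mLP group minus the mCN-CN mean (log2, authors' table) for the 551 selected regions, ordered by the mean difference. Each region has 1 point per mLP group. The 179 regions on the left lie above 0 and the 372 on the right lie below 0 in all 3 groups, as the rule requires.

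The values by scan are part of what the rule used, and say nothing about scan. Within scan 2, mCN-CN replicate 3 minus the mLP-CN mean had a median of 0.19 in the regions where mCN-CN was higher and −0.20 where it was lower. For replicates 1 and 2, which came from another scan than mLP-CN, the medians were 0.18 and −0.20. The mCN-CN array nearest to the mLP arrays was replicate 3 in 210 regions, replicate 2 in 196, and replicate 1 in 145. Without replicate 3, 1784 regions would meet the rule, compared with 846 without replicate 1 and 939 without replicate 2.

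The selected regions were of usual size, with a median of 10 probes over 1670 bp, against 10 probes over 1664 bp in all regions. They lay on all 20 autosomes, and made up between 2.11% (chromosome 20) and 4.55% (chromosome 8) of the regions of a chromosome. Chromosome 1 held 87 of 2221. Of the 551 regions, 48 (8.71%) were next to another selected region, as were 6.96% of all regions. In 19 runs, 40 neighboring regions shared a direction. In 16 of these runs mCN-CN was higher and in 3 it was lower. The neighborhoods that held several of them were picked out after the values were seen. On chromosome 15 between 4.5 and 6.5 Mb, where H2 lies, mCN-CN was higher in 6 of 13 regions by the rule and had the higher mean in 12 of 13. The values of the 6 regions were low, between −4.27 and −3.22. On chromosome 7 between 3 and 7 Mb, where H1 and H3 lie, 6 of 46 regions were selected with mCN-CN higher and 2 with mCN-CN lower, and mCN-CN had the higher mean in 25 of 46.

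A few selected regions were long and may span several promoters. In all, 5 exceeded 5000 bp, of which chr18:57623750-57675193 was the longest, with 262 probes over 51444 bp. It was also the region with the smallest difference, 0.043: the mCN-CN arrays read 0.10, 0.12, and 0.13, and the mLP arrays lay between 0.040 and 0.092.

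Within regions, the probes mostly moved together. In the median selected region, 90% of the probes had the sign of the region, against 66.7% in all regions. Every probe shared the sign in 198 of 551 (35.9%), compared with 7.63% of all regions. In 187 of the 551 regions no probe met the rule on its own, and in 19 at least 50% of the probes did. Among all 15396 regions, these numbers were 12001 and 23. The authors' methods smooth values along the genome, and deviations of neighboring probes less than 300 bp apart correlated with r = 0.718 in the table and r = 0.0841 in the ratio of the processed scanner signals. The agreement of neighboring probes in the table is therefore not agreement of independent measurements.

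The differences were then followed in ratios made from the scanner signals, which come from the same arrays. They are another processing of the same measurements, not other samples. Agilent's processed signals were turned into log2(Cy5/Cy3) and centered on each array's median. In this ratio the mCN-CN mean differed from the mLP mean in the same direction in 510 of the 551 regions (92.6%), against 71.7% over all regions. The regions with mCN-CN higher kept their sign in 369 of 372, with a median of 0.19, and those with mCN-CN lower in 141 of 179, with a median of −0.10. In this ratio, which is not smoothed, the arrays overlapped in most of them. The mCN-CN arrays lay on the same side of all 9 mLP arrays in 37 of the 551 regions, where 1.03% of all regions were separated in this ratio. These were 30 of the 372 regions with mCN-CN higher and 7 of the 179 with mCN-CN lower. Among all regions, selected or not, 0.792% were separated with mCN-CN higher and 0.24% with mCN-CN lower. With normexp background correction and quantile normalization, 549 regions kept their sign (99.6%, against 83.2% of all regions) and 115 stayed separated. Among all regions, 1.33% were separated in that ratio. With loess within each array, 524 of the selected regions kept their sign (95.1%, against 75.8% of all regions) and 60 stayed separated. Among all regions, 2.03% were separated in the loess ratio.

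**Figure D3:**
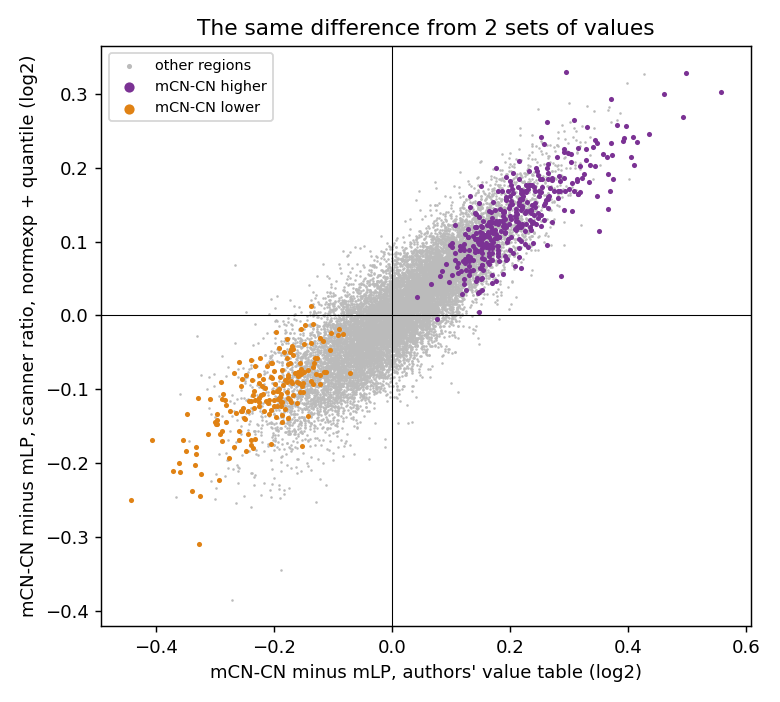
Difference between the mCN-CN mean and the mLP mean (log2) of each region in the authors' table (x axis) and in the scanner ratio after normexp and quantile normalization (y axis). Purple and orange points are the selected regions with mCN-CN higher and lower, and gray points are all other regions. Of the 551 selected regions, 549 lie in the 2 quadrants where both differences have the same sign, and differences are smaller on the y axis.

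In H1, H2, H3, and H5 the mCN-CN arrays overlapped with mLP-CN in the processed ratio, while the mLP-HP arrays lay below them in all 5 H regions. In H1 the processed ratio was −1.26, −1.32, and −0.97 on the mCN-CN arrays, and −1.28, −1.57, and −1.24 on the mLP-CN arrays. The mLP-LP arrays, at −1.68, −1.40, and −1.60, overlapped with mLP-CN, and the mLP-HP arrays lay lower, at −1.90, −2.04, and −1.88. In L3 the difference was close to 0 in this ratio (−0.0097), and the mLP-HP arrays lay below the mCN-CN arrays, at −2.17, −2.47, and −2.20 against −1.98, −2.07, and −1.95.

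Of the selected regions, 9 were separated in the table and in all 3 scanner ratios. The mCN-CN arrays were higher in chr1:190986433-190987896, chr2:182764070-182765773, chr4:33262426-33264018, chr4:163240137-163241826, chr8:40592144-40593845 (H4), and chr13:80562530-80563364. They were lower in chr4:173817448-173819007 (L2), chr10:104825045-104826156, and chr19:41926047-41927684. The 9 were chosen by the contrast itself in 4 processings of the same arrays, and are a description. In the table, chr4:33262426-33264018 had a gap of only 0.00064.

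In the processed ratio, H4 read −0.81, −0.86, and −0.67 on the mCN-CN arrays, against −1.08, −1.03, and −0.94 in mLP-CN, −1.33, −0.97, and −1.15 in mLP-LP, and −1.82, −1.74, and −1.91 in mLP-HP. The mLP-CN and mLP-LP arrays overlapped, and the mLP-HP arrays lay farthest from mCN-CN. In chr4:163240137-163241826 the mCN-CN arrays read 0.082, 0.056, and 0.096, and the mLP-CN arrays −0.075, −0.090, and −0.061. The mLP-LP arrays read −0.43, −0.30, and −0.29, and the mLP-HP arrays −0.49, −0.69, and −0.57, so that the 4 groups did not overlap in this region.

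Among the regions with mCN-CN lower, chr19:41926047-41927684 read −1.05, −0.92, and −0.75 on the mCN-CN arrays and −0.60, −0.67, and −0.74 on the mLP-CN arrays. The mLP-LP arrays read −0.38, −0.32, and −0.36, and the mLP-HP arrays −0.60, −0.38, and −0.46. The signal of this region was weak. Of its 8 probes, 3 were well above background in Cy5 in mCN-CN, 4 in mLP-CN, and 6 in mLP-LP and mLP-HP. In chr10:104825045-104826156 the mCN-CN arrays read 0.073, 0.11, and 0.044. The 9 mLP arrays lay between 0.25 and 0.62. The remaining selected regions were separated in the table and in at most 2 of the 3 scanner ratios.

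The direction of the difference went with how bright a region was in the input channel. When all regions were divided into 4 groups of 3849 by their median Cy3 intensity, the regions with mCN-CN higher numbered 17, 89, 116, and 150 from the dimmest group to the brightest. Those with mCN-CN lower numbered 115, 35, 19, and 10. The median Cy3 intensity was 189 in the first class and 99.3 in the second, against 152 over all regions. The table had the same tilt over all regions, the selected ones included: the median difference rose from −0.029 in the dimmest group to 0.039 in the brightest, and within scan 2 from −0.047 to 0.057. For mCN-CN replicates 1 and 2 against mLP-CN, it rose from −0.10 to 0.15. The processed ratio had the opposite tilt, with medians of 0.095, 0.050, 0.019, and −0.020 from the dimmest group to the brightest. The medians of the dimmest and the brightest group were 0.0060 and 0.00097 with normexp and quantile normalization, and 0.011 and 0.017 after loess within each array. The regions separated in the loess ratio numbered 54, 54, 41, and 37 with mCN-CN higher and 26, 28, 39, and 34 with mCN-CN lower, as the plot by input brightness shows. The part of brightness in the differences was not tested.

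**Figure D4:**
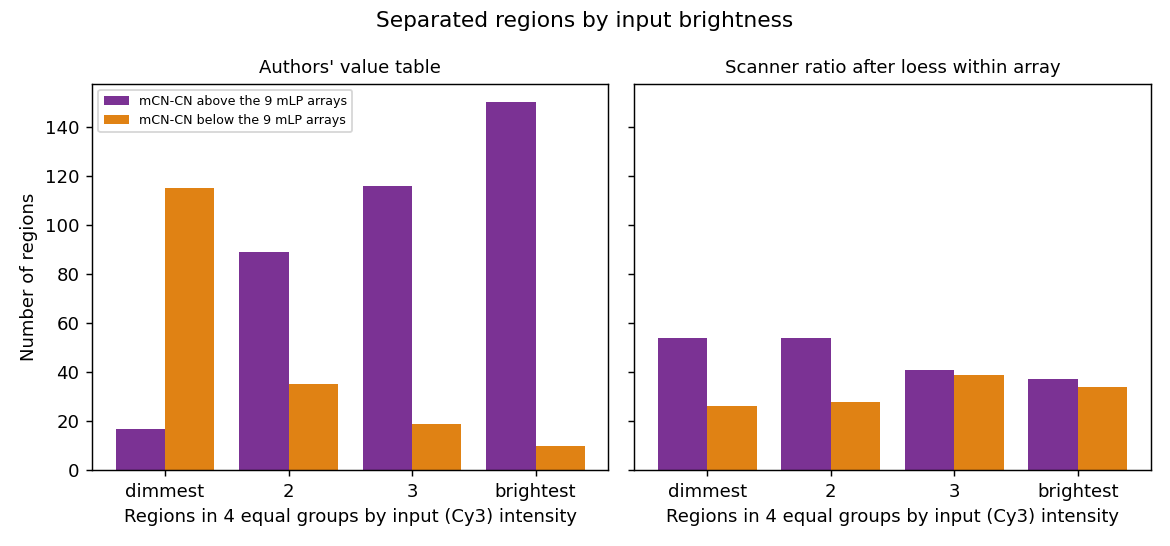
Number of regions with the mCN-CN arrays all above or all below the 9 mLP arrays, with the regions divided by input (Cy3) intensity into 4 groups of 3849. The left panel uses the authors' table and the right panel the scanner ratio after loess within each array. On the left, counts with mCN-CN higher rise from 17 to 150 and counts with mCN-CN lower fall from 115 to 10.

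The 2 classes also differed in other features of their probes. All probes were well above background in Cy3 on every array in 127 of the 372 regions with mCN-CN higher (34.1%), but in 2 of the 179 with mCN-CN lower (1.12%), against 15.8% of all regions. A median probe length of at least 50 bases was found in 40.8% of the regions with mCN-CN lower and in 21.0% of those with mCN-CN higher, against 22.6% of all regions. In chr4:86115614-86116823, which had mCN-CN lower, no probe was well above background in Cy5 on the mCN-CN or the mLP-CN arrays, so that no size of difference is given for it. The input channel itself separated mCN-CN from all mLP arrays in 17 of the 551 regions, compared with 2.82% of all regions. In the authors' table, 3.58% of all regions were separated.

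The offspring diets were compared within the mLP groups with limma on the processed scanner ratio over all 15396 regions. The mLP-LP and mLP-HP comparisons with mLP-CN share the mLP-CN arrays. In both, the compared groups share no scan, so diet and scan cannot be told apart. The rule placed all 9 mLP arrays of a selected region on one side of mCN-CN in the table. It therefore limits how far those arrays can spread there. Between mLP-LP and mLP-CN, limma called none of the selected regions and none of all regions (0%) at an adjusted p of 0.05. At an unadjusted p of 0.05, 67 selected regions (12.2%) and 1967 of all regions (12.8%) passed. With normexp and quantile normalization, limma called 66 selected regions and 2975 of all regions.

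Between mLP-HP and mLP-CN, 196 of the 551 selected regions were called (35.6%), against 38.4% of all regions. In this ratio, the count in the selected regions was thus near the background. Of the 372 regions in which mCN-CN was higher, 118 (31.7%) were lower in mLP-HP than in mLP-CN and 4 (1.08%) were higher, where 21% and 17.5% of all regions were. Of the 179 regions in which mCN-CN was lower, 41 (22.9%) were higher and 33 (18.4%) were lower in mLP-HP. The rule keeps a region in the first class only where every mLP-HP array lies below every mCN-CN array in the table, so that regions in which mLP-HP had risen to mCN-CN there were left out, and nothing is read from the split of 118 and 4. The split was 32 and 32 after normexp and quantile normalization, where 2533 of all regions were called lower and 3297 higher. The 2 classes differ in input brightness, and so did the comparison itself: the median difference between mLP-HP and mLP-CN over all regions rose from −0.20 in the dimmest group to 0.14 in the brightest. Of the first class, 116 and 150 regions lay in the 2 brightest groups, where that median was 0.034 and 0.14. The part of brightness in these counts was not tested.

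These counts depended on the processing. In the authors' table, where the rule limits the spread of the mLP arrays, 10.3% of the selected regions were called, against 27.2% of all regions. The shares were 19.1% against 37.9% after normexp and quantile normalization. They were 14.2% against 20.1% after quantile normalization of the processed ratio. After loess the selected regions had the higher share, with 30.1% against 23.7%. In the first class, 31 regions were called lower and 7 higher in the authors' table, where 1724 and 2467 of all regions were. After quantile normalization of the processed ratio the counts were 40 and 3, against 1244 and 1844 of all regions. After loess they were 114 and 4, against 1904 and 1744. Nothing is read from these splits either, for the reason given above. With scan as a random block, arrays of a scan were estimated to correlate at 0.68. No selected region was called then, and 20 of all regions were. At an unadjusted p of 0.05, 3531 of all regions passed in that fit. Of the calls over all regions, 45.4% were higher in mLP-HP. This share was 59.7% after quantile normalization of the processed ratio, 56.6% after normexp and quantile normalization, and 58.9% in the authors' table.

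**Figure D5:**
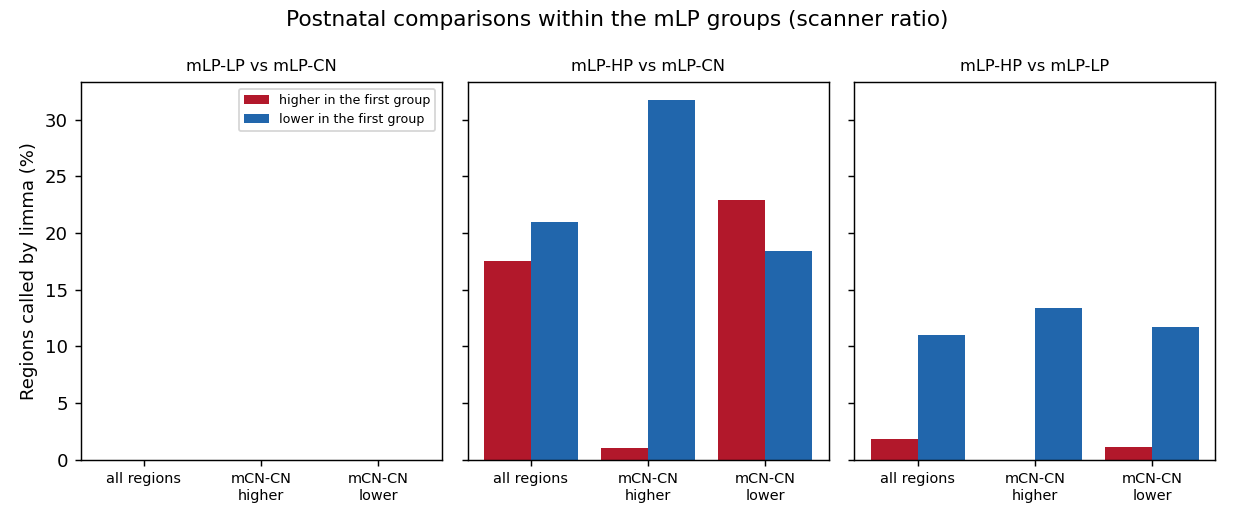
Share of regions called by limma at an adjusted p of 0.05 in each comparison between offspring diets within the mLP groups (processed scanner ratio, 3 arrays per group), for all 15396 regions and for the 372 and 179 selected regions. Red bars are regions higher and blue bars regions lower in the group named first. No region was called between mLP-LP and mLP-CN. In the class with mCN-CN higher, 31.7% were lower in mLP-HP than in mLP-CN, against 21% of all regions. Nothing is read from this share, because the rule limits where the mLP-HP arrays can lie.

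The selected region with the smallest adjusted p was H4, whose arrays are given above: mLP-HP lay below mLP-CN by −0.81 (SE 0.10, limma adjusted p = 0.000262). It lay below mLP-LP by −0.67 (SE 0.10, limma adjusted p = 0.0078). In chr7:6797945-6799646, where mCN-CN was higher in the table, the processed ratio was −2.75, −2.90, and −2.83 in mLP-HP, against −2.03, −2.10, and −2.15 in mLP-CN. The groups did not overlap, and the difference was −0.73 (SE 0.10, limma adjusted p = 0.000399).

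In chr2:122719647-122720322, where mCN-CN was lower in the table, mLP-HP read 0.56, 0.84, and 0.60 and mLP-CN −0.37, −0.23, and −0.010, a difference of 0.87 (SE 0.13, limma adjusted p = 0.000547). The mLP-LP arrays lay between the other mLP groups, at 0.53, 0.081, and 0.12. The mCN-CN arrays, at −0.42, −0.14, and −0.19, overlapped with mLP-CN in this ratio. In the table, mCN-CN minus mLP was 0.29 in chr7:6797945-6799646 and −0.44 in chr2:122719647-122720322 over all mLP groups. Against mLP-CN alone it was 0.26 and −0.22. Within scan 2, mCN-CN replicate 3 minus the mLP-CN mean was 0.15 and −0.24.

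Between mLP-HP and mLP-LP, 73 of the selected regions were called (13.2%), against 12.8% of all regions. In 71 of them mLP-HP was lower (11% of all regions were) and in 2 it was higher (1.81% of all regions were). After H4, the smallest adjusted p values were those of chr1:73408513-73410237, with a difference of −0.68 (SE 0.12, limma adjusted p = 0.00936), and of chr5:70211419-70212901, with −0.66 (SE 0.13, limma adjusted p = 0.0116). In the former, mLP-HP read −2.81, −2.53, and −2.54, and mLP-LP −2.23, −1.66, and −1.95. In the latter, mLP-HP read −3.71, −3.66, and −3.43, and mLP-LP −3.31, −2.70, and −2.79. Its signal was weak: of 9 probes, 2 were well above background in Cy5 in mLP-HP and 3 in each other group. The mLP-LP arrays were spread widely in both regions, and replicate 10, the mLP-LP array that shared a scan with mLP-HP, was the nearest to mLP-HP. In the table, mCN-CN exceeded mLP by 0.30 and 0.16 in these regions, and mLP-CN alone by 0.22 and 0.14. Within scan 2, mCN-CN replicate 3 exceeded the mLP-CN mean by 0.092 and 0.085.

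The count of calls between mLP-HP and mLP-LP rested on single arrays. Without mLP-LP replicate 12 limma called 0 regions, while 3227 passed at an unadjusted p of 0.05. Without mLP-LP replicate 10, limma called 206 selected regions and 6276 of all regions. Without mLP-LP replicate 11, 18 of all regions were called. Leaving out mLP-HP replicate 7, 8, or 9 gave 403, 61, or 716. With scan as a fixed block, which leaves 2 residual degrees of freedom, limma called 0 regions and 937 passed at an unadjusted p of 0.05, of which 33 were selected regions.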

How the data were processed

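Kidney MeDIP-chip data of 12 arrays were used, grouped by their labels. The members and lists were chosen with earlier results of these data known. The authors deposited scanner output of Agilent Feature Extraction 11.0.1.1 with Cy5 and Cy3 intensities, together with a probe table of log2 values. Their methods name median centering, quantile normalization, and linear smoothing, but the file states neither scale nor centering. Column medians lay between −0.032 and 0.019, and its direction was taken as Cy5 over Cy3, because Spearman's rho with the scanner ratio was 0.826 to 0.869. All arrays had Cy5 on precipitated DNA. Per the file headers, probes are on build rn4.

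The table gave the selection. For tests, Agilent's processed signals, which are background-subtracted and dye-normalized, were turned into log2(Cy5/Cy3) and centered on the array median. Spots with outlier flags (170 to 16509 per array, the most on mCN-CN replicate 3) were treated as missing. Region means were fitted in limma 3.58.1 (R 4.3.3) with 12 arrays, 8 residual degrees of freedom, and Benjamini-Hochberg adjustment over 15396 regions at 0.05. The limma step was run on simulated data with independent arrays and large planted shifts, as a check of the code. No scan effect was simulated, so that the check says nothing about scan. The median residual SD was 0.132 in log2 units, and the 3 arrays per group limit the precision. Regions named were the 5 widest gaps per direction, those at the threshold, and the 3 smallest adjusted p values per comparison. Others, such as the longest region, the largest difference, and those separated in every ratio, were singled out after their values were seen. Alternatives were other background corrections and normalizations (normexp with an offset of 50), probe summaries and filters, scan as a block, and leaving out arrays. Gene names and sequences were not used here.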

Additional observations from a re-analysis of the deposited data

How the results depend on the processing

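With scanner ratios in place of the authors' table, the rule selected 159 regions in the processed ratio (122 with mCN-CN higher, 37 lower), 204 with normexp and quantile normalization (132 and 72), and 313 with loess (186 higher). With only probes bright in Cy3 on all arrays, it selected 567 with mCN-CN higher and 62 lower. Leaving out an array in turn gave 571 to 1784 regions in all, 388 to 1177 with mCN-CN higher, and 183 to 607 lower, since fewer arrays make the rule easier to meet. The median over probes gave 468 regions, a gap of 500 bp 591, and at least 5 probes 543.

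Between mLP-LP and mLP-CN, limma called 36 regions after quantile normalization (1 selected), 2975 with normexp and quantile normalization (66 selected), 1 with loess, 135 in the authors' table (1 selected), and 14 with bright probes (2 selected). Leaving out an array gave 0 in each case. Between mLP-HP and mLP-CN, it called 3088 after quantile normalization (78 selected), 3648 with loess, and 20 with scan as a random block (0 selected). With normexp and quantile normalization it called 105 selected regions (19.1%) and 5830 of all regions (37.9%). In the authors' table it called 57 selected regions (10.3%) and 4191 of all regions (27.2%). Leaving out an array gave 4057 to 7161 of all regions and 140 to 239 selected. Between mLP-HP and mLP-LP, it called 0 after quantile normalization (0 selected), 2 with normexp and quantile normalization (0 selected), 930 with loess, 12 in the authors' table (0 selected), 58 with scan as a random block (4 selected), and 0 with scan as a fixed block (0 selected). The median over probes called 48 selected regions (8.71%) and 1362 of all regions (8.85%). Leaving out an array gave 0 to 6276 of all regions and 0 to 206 selected. The share of calls higher in mLP-HP, 45.4% against mLP-CN and 14.1% against mLP-LP, was 66.9% and 39.4% with bright probes and 63.6% and 29.9% with the median over probes. The cause of these shifts was not tested.

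With loess, the difference between mCN-CN and mLP turned from below 0 to 0.0024 in chr3:71681025-71682684 (L5) and to 0.0012 in chr12:43115379-43118182. No paired analysis was possible because the sources used here give no pairing of arrays between groups. The number of arrays and signals near background in dim regions limit these values.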

Other observations

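Chromosome X was outside the rule. Of its 560 regions with at least 3 probes, the mCN-CN arrays lay above all 9 mLP arrays in 3 and below them in 8, or 1.96% of the regions.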
